A study of Mus musculus with 135 samples.

Results

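Choroid plexus markers are the genes by which the epithelium of the choroid plexus is recognised among brain cells. 10 of them, out of 55416 genes in each count table, were followed through the cortex and the hippocampus of mice with and without sickle cell disease: Ttr, Kl, F5, Folr1, Slc4a5, Kcne2, Aqp1, Mfrp, Tmem72 and Otx2. They were taken by symbol, and were selected on measured values: Ttr levels in the cortex, in SS and AA + RSD mice, had been seen when the list was drawn up. The cortical contrasts that use SS or AA + RSD mice, the interaction of genotype and RSD included, are therefore given as a description. So is the contrast of hippocampus and cortex in untreated mice, which uses the same cortical SS libraries.

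The mice were male Townes mice, in which human globin genes replace those of the mouse, 6 months old in the first of the study's experiments. AA mice carry normal human hemoglobin and served as the humanized control, and SS mice carry sickle hemoglobin. AA and SS alone denote mice with neither stress nor drug. AA + RSD and SS + RSD mice went through repeated social defeat (RSD), daily sessions with an aggressive intruder in the home cage over 6 days. AA + minocycline and SS + minocycline mice drank minocycline, a tetracycline antibiotic that dampens microglial activation, and AA + RSD + minocycline and SS + RSD + minocycline mice had the drug before and during RSD. All were killed after behavioral testing, and the 2 brain regions were sequenced as bulk polyA RNA. Of AA genotype, cortex libraries came from 12 AA, 3 AA + RSD, 1 AA + minocycline and 18 AA + RSD + minocycline mice. Of SS genotype, they came from 8 SS, 6 SS + RSD, 14 SS + RSD + minocycline and 4 SS + minocycline mice. Hippocampus libraries came from the same numbers except 11 AA and 7 SS mice. A further pair of mice, labelled AA + RSD + minocycline and SS + minocycline, had identical counts in each tissue. That pair was left out of the tests and counted as 1 library in descriptions, which gave 67 cortex and 65 hippocampus libraries. Reads on genes ranged from 16295042 to 107713193 in the cortex and from 12869149 to 68731008 in the hippocampus.

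The choroid plexus is a folded, vascular tissue that hangs in the brain ventricles and secretes the cerebrospinal fluid. Its epithelial cells are joined by tight junctions into the barrier between blood and fluid, and they carry transporters, channels and secreted carrier proteins. The plexus of the lateral ventricle lies next to the hippocampus, whereas cortical gray matter holds none. In bulk libraries, fewer cells of a type and less RNA per cell cannot be told apart.

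The library labelled 9674, of an AA + RSD mouse, went against its labels in both tissues. In the cortex library, 7 hippocampal genes (C1ql2, Prox1, Dsp, Lct, Tdo2, Fibcd1 and Spink8) summed to 413 CPM (counts scaled to an equal total per library), against 23.6 to 62.3 CPM in the other 66 libraries. 6 cortical genes (Rorb, Cux2, Lamp5, Rspo1, Tbr1 and Fezf2) summed to 154 CPM, against 247 to 724 CPM elsewhere. In the hippocampus library of that mouse, the hippocampal genes summed to 37.7 CPM, against 296 to 708 CPM in the other 64, and the cortical genes to 621 CPM, against 129 to 416 CPM. The labels were kept as given, and the comparisons of AA + RSD mice are given with and without it. The cortex library of mouse 9903, the other library that stands apart below, had a cortical profile, with 26.9 CPM of the hippocampal and 609 CPM of the cortical genes.

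A score per library, the mean over the 10 genes of log2 CPM (2 reads added before the logarithm), summarised their level in that library. In the cortex, the score had a median of -1.02, with quartiles of -1.38 and -0.76. Counting as far above the rest any score over the upper quartile plus 3 interquartile ranges, a limit of 1.10, 2 of 67 cortex libraries qualified. They were 9674 (AA + RSD, 5.62) and 9903 (SS, 3.76). The next library, 9813 (SS + RSD + minocycline), stood at 0.17, so that the gap below 9903 was 3.58 wide. In the hippocampus, scores spread from -1.10 to 6.57 around a median of 0.39 and no library passed the corresponding limit of 8.27. The widest step between neighbouring scores there, 1.18, lay between 9836 (AA, 2.75) and 9910 (SS + RSD + minocycline, 3.93), and 11 of 65 libraries lay above it. The 5 highest were 5646 (AA + RSD + minocycline, 6.57), the identical pair (6.496), 9615 (SS + RSD, 6.37), 5839 (AA + RSD + minocycline, 6.01) and 10638 (AA + RSD + minocycline, 5.78). Below them came 9839 (AA, 5.76), 9838 (AA, 5.63), 9616 (SS + RSD, 4.94), 9894 (SS + RSD + minocycline, 4.87), 5349 (SS, 4.59) and 9910. Hippocampi with a high score thus occurred in 2 of 11 AA, 1 of 7 SS, 2 of 6 SS + RSD, 3 of 18 AA + RSD + minocycline and 2 of 14 SS + RSD + minocycline mice, and in 0 of 3 AA + RSD mice (0 of 2 without 9674), 0 of 4 given minocycline as SS and 0 of 1 as AA without RSD. These groups were not tested for a difference in that share. The counts go by the labels, so the library of 9674 with a hippocampal profile, labelled cortex and scored 5.62, is not among them.

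**Figure D1:**
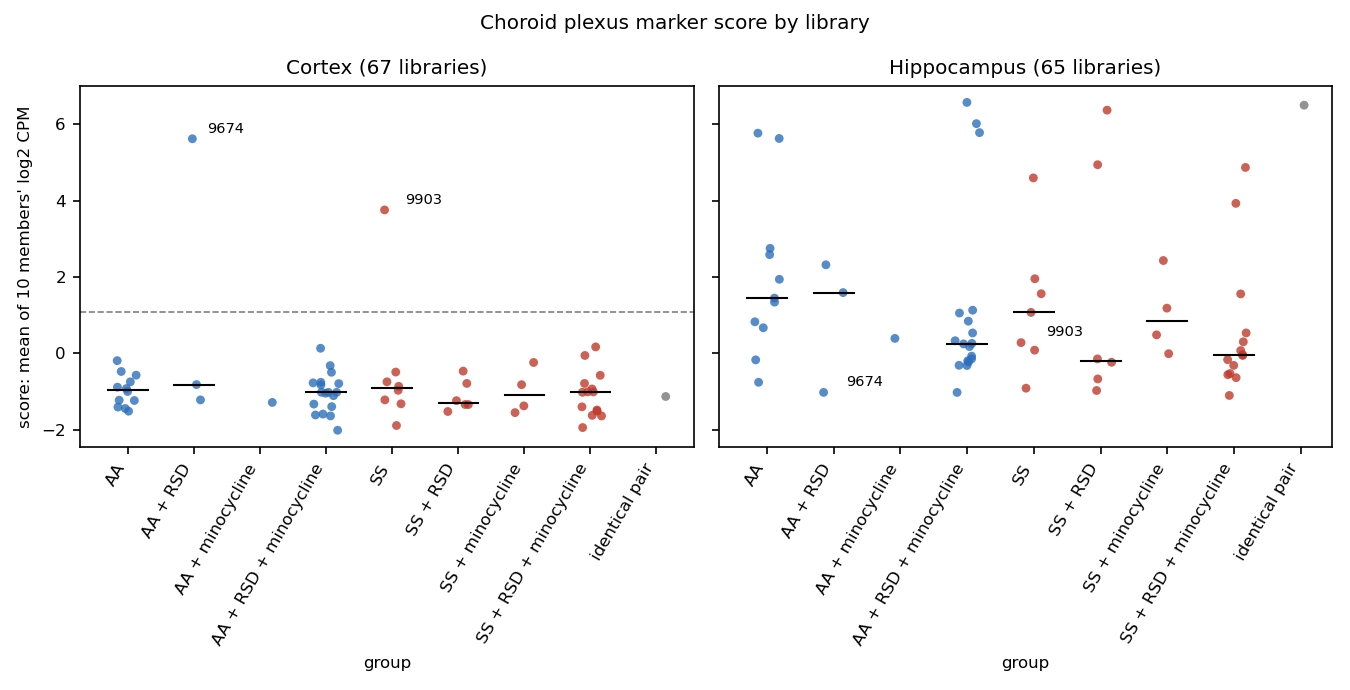
The score of each library (vertical axis, mean log2 CPM of the 10 genes) by group, in cortex on the left and hippocampus on the right. Points are libraries, short lines group medians and the dashed line the cortical limit of 1.10, which only 9674 and 9903 exceed, while 11 hippocampus libraries lie between 3.93 and 6.57.

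Ttr encodes transthyretin, the carrier of thyroxine and of retinol-binding protein in the cerebrospinal fluid, and it set the upper end of every high library. In cortex, Ttr reached 4949 CPM in 9674 and 1131 CPM in 9903, and the other 65 libraries held 0.90 to 82.7 CPM. Within AA + RSD mice the 3 cortical values were 4949, 19.96 and 6.83 CPM. Cortical AA mice had a lowest value of 3.58, a median of 10.8 and a highest value of 27.8 CPM, so 9674 was the only AA + RSD library outside their range. Cortical SS mice ran from 2.31 through a median of 7.03 to 1131 CPM. The second highest SS value, 33.7 CPM in 5349, also lay above every AA mouse. In the 4 SS + minocycline mice, cortical Ttr was 82.7, 24.2, 1.28 and 0.95 CPM. The remaining groups stayed low, with 2.26 to 11.5 CPM in SS + RSD, 0.90 to 39.7 CPM in AA + RSD + minocycline, 1.28 to 16.1 CPM in SS + RSD + minocycline and 2.32 CPM in the AA + minocycline mouse.

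In the hippocampus, Ttr was more variable. It ran from 4.32 through 109 to 4101 CPM (lowest, median and highest) in AA mice and from 5.24 through 83.9 to 2266 CPM in SS mice. SS + RSD mice ran from 5.30 through 14.1 to 8838 CPM, the high values being those of 9615 (8838) and 9616 (2766). All groups with at least 6 mice overlapped. AA + RSD + minocycline mice had 3.34 to 9160 CPM with a median of 42.6, and SS + RSD + minocycline mice 7.16 to 2096 CPM with a median of 16.3. The 3 AA + RSD mice had 313, 143 and 10.45 CPM, the last in 9674. The 4 SS + minocycline mice had 526.1, 127, 29.9 and 8.67 CPM, and the AA + minocycline mouse had 29.4 CPM. Every one of the 11 high hippocampi was at or above 1053 CPM (9910), and the other 54 were at or below 526.1 CPM.

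The members' reads made up 0.982% of all reads on genes in hippocampus 5646 (95% exact binomial interval 0.979 to 0.985), 0.529% in cortex 9674 (0.526 to 0.531) and 0.122% in cortex 9903 (0.121 to 0.124). In cortex 9813, the next in line by score, the share was 0.0029% (0.0027 to 0.0031). These intervals cover counting error only. In cortex 9674 and 9903 alike, all 10 genes were raised together. Kl stood at 125 and 32.2 CPM in these libraries and at no more than 6.94 CPM in the other 65, F5 at 44.4 and 15.02 against at most 2.15 CPM, and Slc4a5 at 25.0 and 10.1 against at most 0.34 CPM. Aqp1 was the exception to the separation. It stood at 23.7 and 7.31 CPM, and cortex 9890 (SS + RSD + minocycline) held 8.41 CPM.

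Kl encodes klotho, the co-receptor for the hormone FGF23, which is made by the plexus and also by neurons. It had a level of its own in the hippocampus. There the 54 libraries under the step held 3.37 to 37.8 CPM, and the lowest of these was the hippocampus library labelled 9674, all the others having at least 12.99 CPM. In the cortex, the 65 libraries other than 9674 and 9903 held 1.45 to 6.94 CPM. Kl exceeded 37.8 CPM only in the 11 high libraries, where Ttr was at or above 1053 CPM and Kl 49.95 to 209 CPM, and it had a rho of 0.435 with Ttr over the other 54. F5 (coagulation factor V) ran from 0.31 to 7.59 CPM in the 54 libraries and from 21.5 to 126 CPM in the 11.

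**Figure D2:**
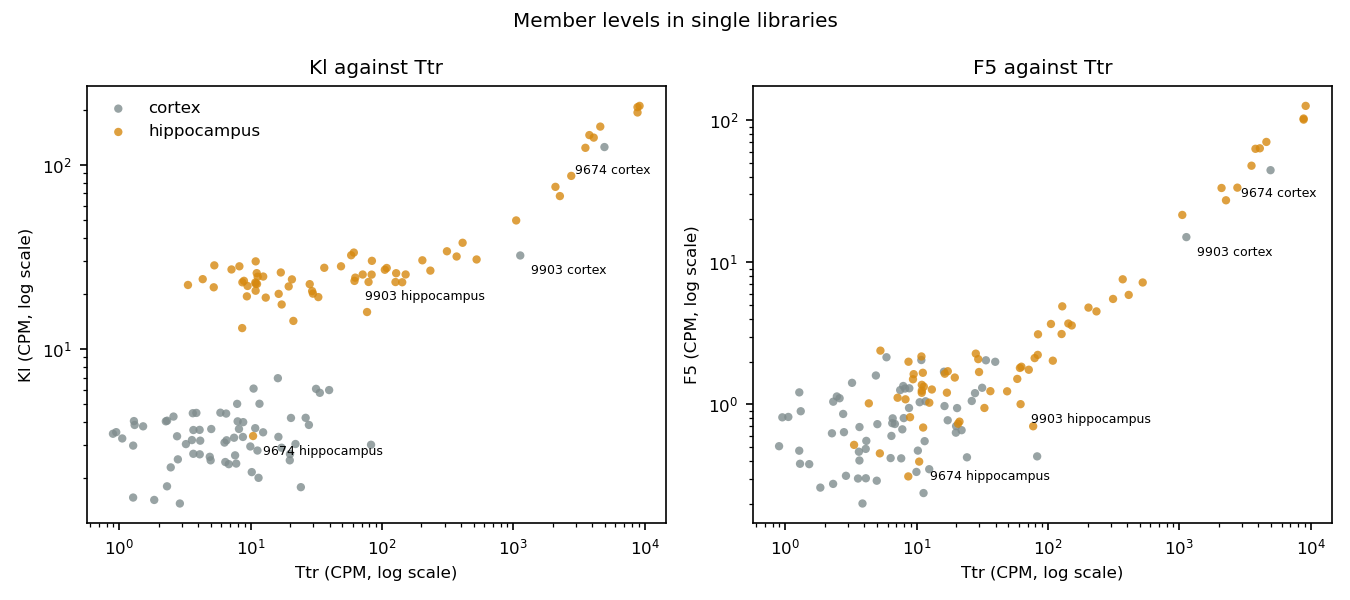
Kl (left) and F5 (right) against Ttr, all in CPM on log scales, with 1 point for each cortex or hippocampus library. Kl stays between 12.99 and 37.8 CPM in most hippocampi and is higher in those with Ttr at or above 1053 CPM, F5 spans a wider range, and the cortex library 9674 lies with the high hippocampi whereas its hippocampus library lies with the cortices.

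The transport genes behaved as F5 did in the hippocampus. Folr1, the folate receptor that moves folate into the fluid, spanned 5.88 to 63.7 CPM in the 11 high libraries and 0.089 to 4.33 CPM in the 54 others. Slc4a5, a sodium bicarbonate cotransporter of the apical membrane, spanned 9.50 to 51.4 CPM against 0 to 3.41 CPM. Kcne2, an accessory subunit of potassium channels, spanned 5.88 to 31.2 CPM against 0 to 1.27 CPM. Aqp1, the water channel of the apical membrane, spanned 5.33 to 44.3 CPM against 0.17 to 2.49 CPM. The remaining members are a frizzled-related membrane protein (Mfrp), a transmembrane protein of poorly known function (Tmem72) and the homeobox factor required for plexus development (Otx2). They spanned 6.03 to 37.1, 12.2 to 86.2 and 4.27 to 24.1 CPM in the high libraries, and at most 3.02, 6.11 and 3.79 CPM in the others. Thus all 10 genes separated the 11 libraries from the 54 without overlap, which the score that chose those libraries partly fixes. A library with no read of a gene was rare in the hippocampus (1 for Slc4a5, 2 for Kcne2 and 1 for Tmem72) and more common in the cortex (8 each for Kcne2 and Otx2, 2 for Slc4a5 and 1 each for Folr1 and Mfrp). For a cortical library without a Kcne2 read, 3 counts amount to 0.043 to 0.15 CPM.

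The reads of the other genes stood in a narrow ratio to those of Ttr in the high libraries, after the median of the other libraries of that tissue had been taken off. In the 11 hippocampi, Kl was 1.92% to 3.22% of Ttr, F5 1.12% to 1.93%, Folr1 0.50% to 0.71% and Aqp1 0.38% to 0.61%, while Ttr itself ranged from 1053 to 9160 CPM. Mfrp (0.36% to 0.93%), Otx2 (0.21% to 0.46%) and Tmem72 (0.58% to 1.61%) varied most, by 2.61, 2.25 and 2.79 times. The 2 cortex libraries fell within or near the same ranges, with 2.46% and 2.57% for Kl and 0.88% and 1.27% for F5. Ratios between genes were not corrected for transcript length and serve only to compare libraries.

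Over all libraries the 10 genes rose and fell together in the hippocampus and much less in the cortex. Spearman's rho over 65 hippocampus libraries was between 0.64 (Kl and Aqp1) and 0.93 (Ttr and Slc4a5) for the 45 pairs, with a median of 0.81 (median Pearson's r 0.93). With the 11 high libraries left out, the median rho was 0.66 over 54 libraries and 35 of 45 pairs remained over 0.5. The lowest pair was then Kl and Aqp1 at 0.37. Against the mean of the other 9 members in those 54 libraries, Ttr had a rho of 0.90, Slc4a5 of 0.89 and Tmem72 of 0.87, whereas Kl had 0.48. Kl instead had a rho of 0.52 with the mean log2 CPM of the hippocampal genes there, where Slc4a5 had -0.0076. In the cortex, the median rho was 0.24 over 67 libraries, with a range from -0.015 to 0.70, and it was 0.17 without 9674 and 9903. The cortical median of Pearson's r, 0.68 with and 0.19 without these 2 libraries, rested on them. The best cortical pair was Ttr and Otx2, with a rho of 0.70 over all 67 libraries and 0.67 over 65. These correlations are descriptions over libraries of differing depth, and genes with few reads per cortical library are limited by counting noise.

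**Figure D3:**
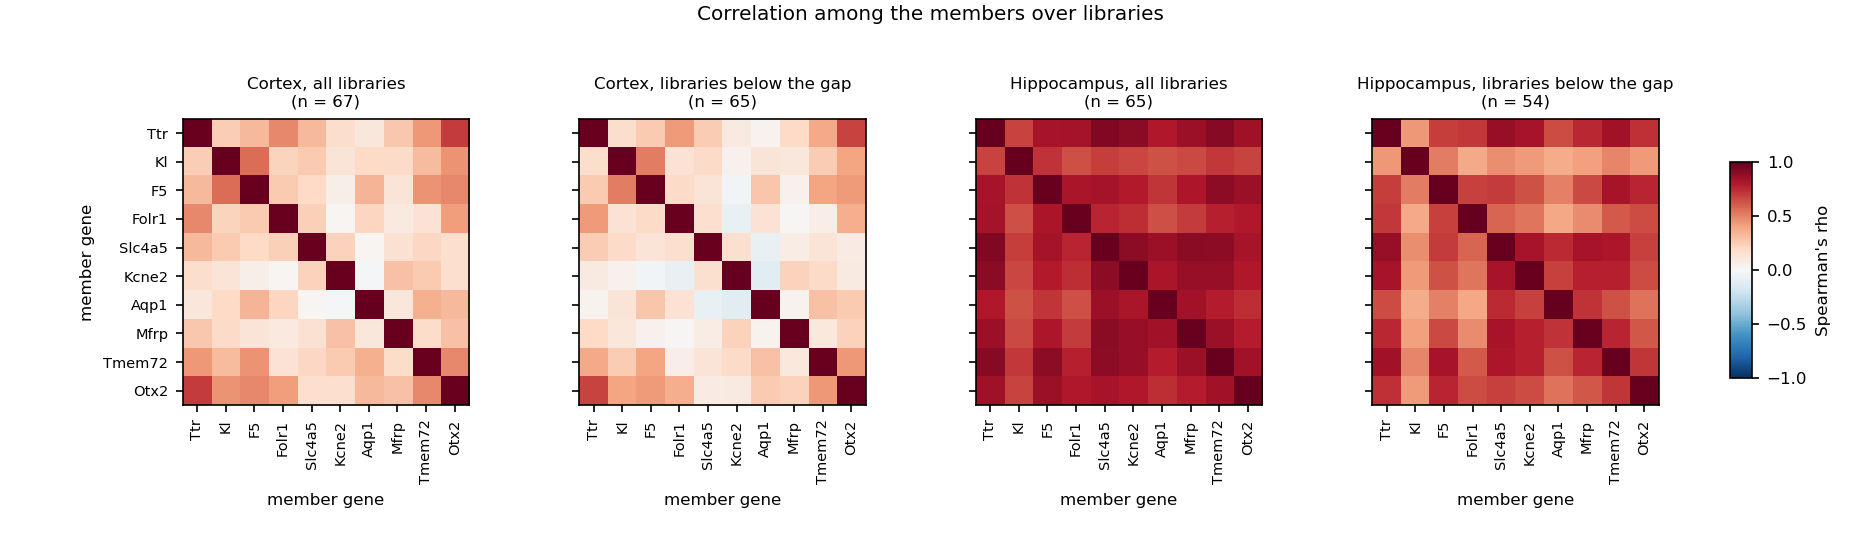
Spearman's rho for every pair of the 10 genes in cortex (left) and hippocampus (right), coloured by rho. Each tissue is shown over all libraries and with the high libraries left out. Over all 65 hippocampus libraries the pairs lie at or above 0.64, whereas over all 67 cortex libraries they range from -0.015 to 0.70. With the high libraries left out, hippocampal pairs range from 0.37 to 0.87 (54 libraries) and cortical pairs from -0.11 to 0.67 (65 libraries).

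Since Otx2 encodes a homeobox factor, the promoter windows of the members were searched for TAATCC, a site of factors of the OTX type, on either strand. RefSeq windows on GRCm38.p6, from 250 bases before to 50 after each start site, covered 8 of 10 members with 12 windows. Only the windows of Mfrp and Otx2 held a match, 2 of 12, where 7.06% of all 32851 windows (2320) held one. Both are shown because they are the only matches among the members, with the letters of the match in capitals (GGATTA, the site read on the other strand). The Mfrp match starts 134 bases before the start site, and the stretch shown is chr9:44101520-44101719 on the plus strand. The Otx2 match, in the third of its 4 windows, starts 211 bases before that start site, within chr14:48665304-48665331 on the minus strand.
Mfrp: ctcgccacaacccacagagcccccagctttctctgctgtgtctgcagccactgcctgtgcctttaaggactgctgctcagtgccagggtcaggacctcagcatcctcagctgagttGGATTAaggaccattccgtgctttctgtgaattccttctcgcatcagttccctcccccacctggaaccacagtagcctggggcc
Otx2: gtgtgcccctcGGATTAtctcgttagtt
A match is a description of letters, and none of the libraries measured binding there.

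In the annotation of GRCm39 (GENCODE), the 10 members lie on 8 chromosomes, with Slc4a5, Aqp1 and Tmem72 all on chromosome 6. Mfrp (chromosome 9, 44013026 to 44020484) shares 37.1% of its exonic bases with C1qtnf5 on the same strand, so its counts are uncertain in level. Kl (chromosome 5, 150876072 to 150917284), Folr1, Slc4a5, Kcne2, Aqp1 and Tmem72 share no exonic base with another gene on either strand. Otx2 shares 3.11% on the same and 4.84% on the other strand, Ttr 3.67% and F5 3.50% on the other strand only.

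A list of 29 other choroid plexus genes followed the 10 members. Its score correlated with theirs with a rho of 0.94 in the hippocampus (0.89 over the 54 libraries) and of 0.73 in the cortex (0.70 over 65). Its summed level was 969 to 4604 CPM in the 11 high hippocampi and 282 to 593 CPM in the other 54, without overlap, and 2448 and 831 CPM in cortex 9674 and 9903 against 262 to 467 CPM in the other 65. For 17 of the 29 genes, every high hippocampus exceeded every other one. By mean hippocampal level the list was led by Enpp2 (autotaxin, which makes lysophosphatidic acid), Car12 (a carbonic anhydrase), Slc29a4 (a monoamine transporter) and Htr2c (a serotonin receptor). Enpp2 weighed most in the summed level. Its median was 1503 CPM in the 11 high hippocampi and 167 CPM in the other 54, where the medians of the sum were 2305 and 350.5 CPM. Enpp2 followed the members with a rho of 0.71 over 65 hippocampi, Car12 with 0.58, Slc29a4 with 0.45 and Htr2c with 0.37. Over the 54 hippocampi these were 0.49, 0.28, 0.13 and 0.025, so that those of Slc29a4 and Htr2c rested on the 11 high libraries. Each of these genes is also made by other brain cells.

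Among 21870 genes ranked in both tissues, the 8 most like the members, by the smaller of the 2 rho values with the score, were Clic6, Krt8, Krt18, Calml4, AC140426.1, Lmx1a, Rd3l and Pbxip1. Clic6, a chloride channel protein of secretory epithelia, led with 0.74 in cortex (67 libraries) and 0.92 in hippocampus (65 libraries). Krt8 had 0.58 and 0.72, and its keratin partner Krt18 had 0.56 and 0.84. Lmx1a, a homeobox factor of the roof plate from which the plexus arises, had 0.53 and 0.81. AC140426.1 (0.53 and 0.76), Rd3l (0.61 and 0.53) and Pbxip1 (0.51 and 0.56) were on none of the lists. Of the 29 other plexus genes, 7 were among the first 50 ranks.

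Markers of neighbouring tissues moved with the members to a lesser extent. Over 65 hippocampi, the members' score had a rho of 0.54 with 10 genes of ependyma, the ciliated lining of the ventricles. It had 0.50 with 10 genes of meningeal fibroblasts, 0.34 with 10 striatal and 0.33 with 7 thalamic genes. The summed level of the ependymal genes was 25.7 to 101 CPM in the 11 high hippocampi and 8.95 to 88.9 CPM in the other 54, so the ranges overlapped. Of the ependymal genes highest in the hippocampus, Foxj1 had a rho of 0.54, Rsph1 of 0.56, Ak7 of 0.50 and Ccdc153 of 0.29. Meningeal genes ran from 74.8 to 150 CPM against 30.6 to 171 CPM, with Dcn, the highest of them, at a rho of 0.21. Folr1 was the member most tied to the ependymal list, with a rho of 0.77 over 65 hippocampi and 0.75 over the 54, compared to 0.33 and 0.054 for Aqp1. The score had a rho of -0.016 with the hippocampal and -0.10 with the cortical genes, -0.096 with the number of reads on genes and -0.10 with the red cell genes. In the 9674 library labelled cortex, which has a hippocampal profile, ependymal genes summed to 50.5 CPM. That was above the 4.90 to 30.03 CPM of the other cortex libraries and within both hippocampal ranges given above. In cortex 9903 they summed to 11.9 CPM.

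Aqp1 in the cortex also moved with markers outside the plexus. It is the water channel of red cells too, and over 67 cortex libraries it had a rho of 0.54 with 10 red cell genes (Alas2 and Slc4a1 among them), whereas the members' score had 0.13. Its rho with the 29 other plexus genes was 0.39. The red cell genes summed to 61.9 to 144 CPM in the 8 SS cortices and to 3.51 to 111 CPM, with a median of 5.36 CPM, in the 12 AA cortices. The 111 CPM was that of 5844, whose hippocampus held 65.4 CPM. Mouse 5853 (AA + RSD + minocycline) held 60.3 CPM in cortex and 54.3 CPM in hippocampus. Mouse 7078 (SS + RSD + minocycline) held 8.19 and 4.97 CPM. The genotype labels of these mice were kept as given. Aside from 9674 and 9903, the highest cortical Aqp1 levels were those of 9890 (8.41 CPM), 5648 (AA + RSD + minocycline, 6.22 CPM) and 9621 (SS + RSD, 3.51 CPM). The 10 striatal genes (Penk, Drd1 and Ppp1r1b among them) summed to 1040, 402 and 1705 CPM in these 3 libraries, where the median of cortices other than 9674 and 9903 was 209 CPM. Cortices rich in striatal genes were not all high in Aqp1, since 9813 held 1315 CPM of the striatal genes and 1.64 CPM of Aqp1, and 5801 held 611 and 0.50 CPM. Over 67 cortices Aqp1 had a rho of 0.25 with the striatal genes, as F5 did, and Folr1 had 0.32. The part of red cells or striatal tissue in cortical Aqp1 was not tested.

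Since 65 mice gave both tissues, cortex and hippocampus were compared within mice. The score was higher in the hippocampus in 61 of 65 mice. Kl was higher in 63 mice (medians 25.4 CPM in hippocampus and 3.36 CPM in cortex), Ttr in 59 (48.8 and 6.52 CPM), Otx2 and Folr1 in 58 each, and Aqp1 in the fewest, 48. By the labels, 9674 and 9903 were among the 4 mice with the higher score in the cortex, and the cortex library of 9674 has a hippocampal profile. Scores of the 2 tissues of a mouse were weakly related. Over 65 mice Spearman's rho between the tissues was 0.24 and Pearson's r -0.029, and without the 2 mice farthest from the cortical median (9674 and 9903) they were 0.31 and 0.24. Mouse 5646, with 9160 CPM of Ttr in the hippocampus, had 39.7 CPM in the cortex, where its score ranked 4 of 67, and 9615, with 8838 CPM, had 11.5 CPM and ranked 44. Conversely, 9903, with 1131 CPM in the cortex, had 61.8 CPM of Ttr and 23.4 CPM of Kl in the hippocampus.

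**Figure D4:**
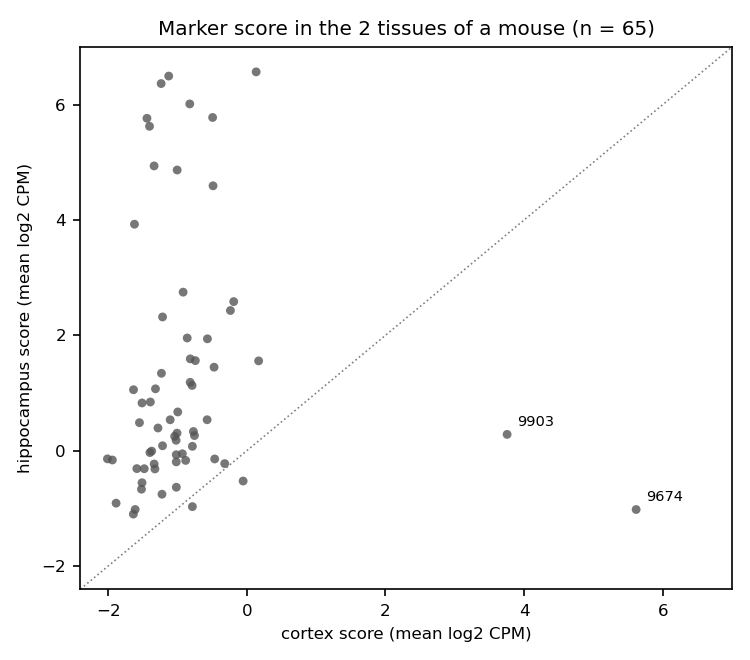
The score of each of 65 mice in the hippocampus (vertical axis) against that in its cortex (horizontal axis), both in mean log2 CPM of the 10 genes, with the dotted line marking equal scores. 61 mice lie above the line, the 11 high hippocampi belong to mice with cortical scores of at most 0.13, and 9674 and 9903 lie far to the right with hippocampal scores of -1.02 and 0.28.

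In untreated AA and SS mice (38 libraries, edgeR's quasi-likelihood test with Benjamini-Hochberg adjustment), all 10 members were higher in the hippocampus than in the cortex, where 23.2% of 19255 genes tested were called higher. Cortical Ttr of the SS mice in this contrast was in view when the genes were chosen, so its values are a description. Kl differed with the smallest error (log2 fold change 2.90, SE 0.31, adjusted p = 2.5e-10). Ttr had the largest change (3.74, SE 0.88, adjusted p = 0.00052) and Aqp1 the smallest (1.95, SE 0.51, adjusted p = 0.0017). The median over the members was 2.96, against 0.017 over all genes, and of the 29 other plexus genes 21 of 27 tested were higher. The mice of the 2 tissues were the same animals, and with the mouse as a replicate block (18 mice with both libraries) all 10 members were again called higher, with a median of 2.74. Without 9903 the median was 4.05, without any other single mouse 2.14 to 3.07, and all 10 were called each time.

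Whether RSD changed these genes in control mice was compared first in the cortex. All 10 members were called higher in AA + RSD (n = 3) than in AA mice (n = 12), where 0.803% of 21927 genes were called higher. As the contrast was in view when the genes were chosen, nothing is read from that count. The log2 fold changes ran from 3.63 (Kl) to 7.15 (Ttr). Without 9674, the library with a hippocampal profile, they ran from -1.55 (Kcne2) to 0.64 (Slc4a5), and edgeR called 0 members, with 0 at an unadjusted p under 0.05. DESeq2, which withholds p-values where a single library dominates, gave none for any of the 10 genes. AA + RSD + minocycline mice (n = 18) had all 10 members lower than AA + RSD mice, with 1.93% of genes called lower. Without 9674 edgeR again called 0 members, with 0 at an unadjusted p under 0.05 and log2 fold changes of -0.91 to 1.77.

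In the cortex of SS mice (n = 8) against AA mice (n = 12), edgeR called 2 of 10 members higher, Ttr and Slc4a5, where 0.209% of 22926 genes were called higher. This contrast was in view as well. The log2 fold changes, all positive, ran from 0.96 (Kl) to 3.61 (Ttr), with 3.03 for Slc4a5. Slc4a5 was at 10.1 CPM in 9903 and at 0.050 to 0.18 CPM in the other 7 SS mice. Without 9903 they ran from -0.84 (Otx2) to 0.66 (Aqp1), and edgeR called 0 members, with 0 at an unadjusted p under 0.05. Leaving out 9674, which only shares the estimate of the spread, gave 5 members called instead. Red cell genes summed to 140 CPM in 9903, within the range of SS mice.

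The contrast of the 2 stressed genotypes also rested on 9674 and used values that were in view, so that it and the interaction are descriptions. SS + RSD (n = 6) were lower than AA + RSD cortices in 8 of 10 members, with 0.397% of genes called lower, and without 9674 edgeR called 0, with 0 at an unadjusted p under 0.05. The interaction of genotype and RSD was called in 8 members, all lower, where 0.236% of genes were called lower. Without 9674 edgeR called 0 members and 4 had an unadjusted p under 0.05, and without both 9674 and 9903 it called 0 with 0 at that level.

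In the other cortical contrasts edgeR called 0 members. Shares of genes called are at an adjusted p under 0.05, a stricter level than the unadjusted p of the member counts below. Slc4a5 and Kcne2 did not pass the filter on low counts in the fit of SS groups, which left 8 members. SS + RSD against SS mice called 0 of 8, with 5 at an unadjusted p under 0.05, where 2.57% of 19906 genes were called, and DESeq2 also called 0, with 2 at that level. Their log2 fold changes, -4.32 to -0.32, became -0.48 to 0.71 without 9903. SS + RSD + minocycline (n = 14) against SS + RSD mice called 0 of 8, with 0 at an unadjusted p under 0.05 and 0 by DESeq2, where 8.85% of genes were called. SS + minocycline (n = 4) against SS mice called 0 of 8, with 3 at an unadjusted p under 0.05 by edgeR and 4 by DESeq2, which called 0, and 0% of all genes were called. Without 9903, 0 members had such a p by edgeR. SS + RSD + minocycline against AA + RSD + minocycline mice called 0 of 10, with 0 at an unadjusted p under 0.05, where 0.624% of genes were called, and DESeq2 called 0 of the 2 members to which it gave a p-value.

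**Figure D5:**
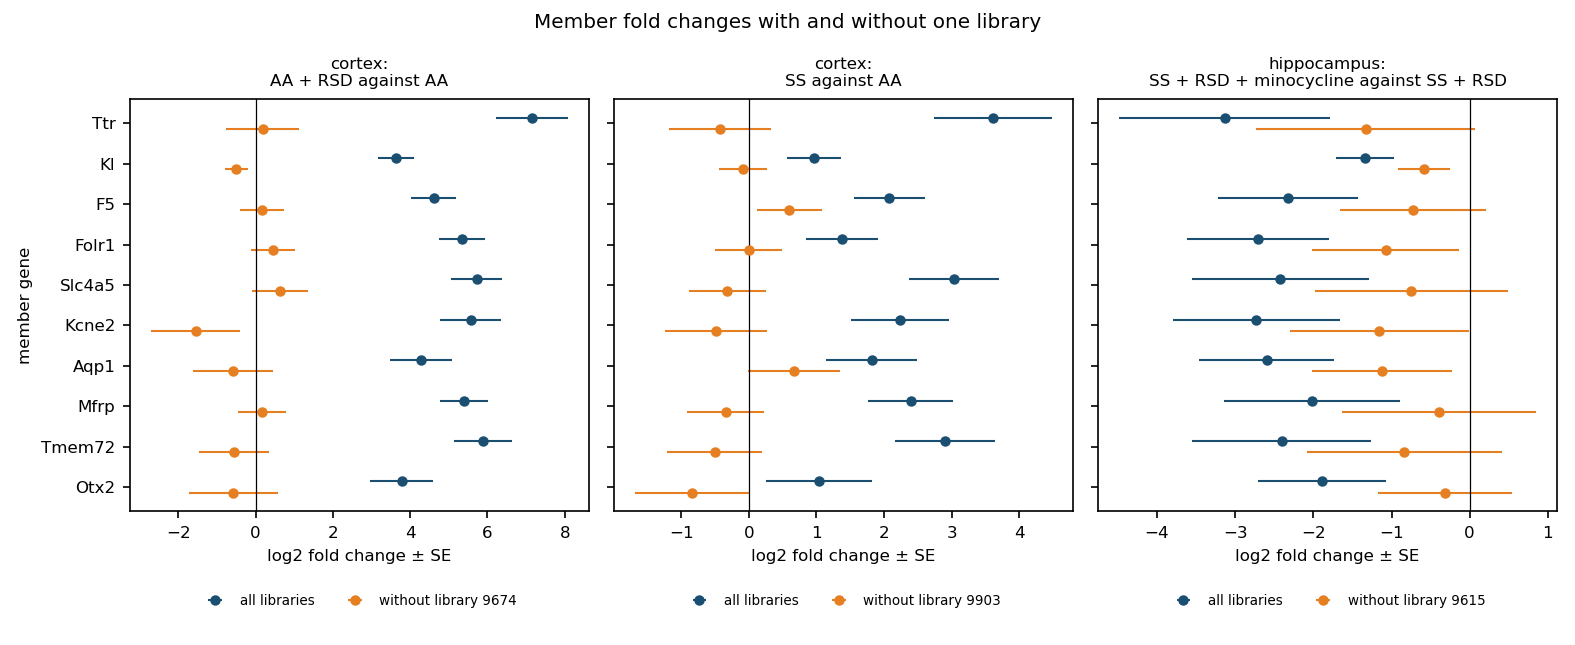
Log2 fold changes (points) ± SE (bars) of the 10 genes by edgeR in 3 comparisons, with all libraries (dark) and without the library named under each panel (light). Removing 9674 or 9903 brings the cortical values to between -1.55 and 0.66, and removing 9615 moves the hippocampal values of SS + RSD + minocycline against SS + RSD mice toward 0.

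In the hippocampus, RSD in SS mice (SS + RSD n = 6, SS n = 7) gave 0 of 10 members called, where 3.11% of 20701 genes were called. An unadjusted p under 0.05, a looser level, was found for 2 members by edgeR and for 3 by DESeq2, which called 0. The log2 fold changes were 1.16 to 2.32 (median 2.02), but -0.08 to 0.73 (median 0.43) without 9615 and -0.018 to 0.84 with the series of mouse numbers as a term. The SS + RSD group held the 2 high hippocampi of 9615 and 9616, and its other 4 mice had 5.30 to 17.3 CPM of Ttr, below the SS median of 83.9 CPM.

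SS + RSD + minocycline (n = 14) against SS + RSD hippocampi was the single hippocampal comparison in which a member was called. Kl was lower (log2 fold change -1.34, SE 0.37, adjusted p = 0.034 by edgeR), where 1.08% of genes were called lower. An unadjusted p under 0.05 was found for 9 of 10 members. That level is looser than the one behind the 1.08%, and the share of all genes that reached it is not given. Kl levels ran from 17.5 through a median of 29.2 to 193 CPM in SS + RSD mice and from 12.99 through 22.3 to 76.0 CPM in SS + RSD + minocycline mice, so the groups overlapped. The highest SS + RSD values, 193 and 87.2 CPM, were those of 9615 and 9616, and the other 4 were 17.5, 28.1, 28.5 and 29.9 CPM. Without 9615 the fold change of Kl was -0.58 (SE 0.34, adjusted p = 0.30), the members' median went from -2.42 to -0.79, and 0 members had an unadjusted p under 0.05. Kl was not called either without 9616 (adjusted p = 0.077), 5354 (0.060) or 5391 (0.052), and was called without 5400 (0.027) or 9621 (0.041). Of the 29 other plexus genes, 5 were called lower. DESeq2 called 3 members lower, and without the filter on low counts edgeR called 0. The fold changes of the other 9 members ran from -1.89 (Otx2) to -3.14 (Ttr, SE 1.35, adjusted p = 0.13). All 6 SS + RSD mice carry numbers of the series shared by AA + RSD mice, and all SS + RSD + minocycline mice numbers of other series, so drug and number series cannot be told apart by these groups alone. With the series as a term, edgeR called 0 members, 0 had an unadjusted p under 0.05, and their median was 1.31. In that fit only the untreated SS mice 5349 and 5353 share the series of the SS + RSD mice, and 5349 is among the high hippocampi (score 4.59). The value of 1.31 therefore leans on few mice.

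The other hippocampal contrasts called 0 of 10 members by edgeR and by DESeq2. AA + RSD against AA mice (n = 3 and 11) had 0 members at an unadjusted p under 0.05 by either tool, where 1.19% of 21563 genes were called. The fold changes there, -2.86 to -1.28, were -2.32 to -0.77 without 9674, whose hippocampus library has a cortical profile. AA + RSD + minocycline against AA + RSD mice had 0 by edgeR and 1 by DESeq2, where 2.67% of genes were called, with fold changes of 1.30 to 3.32 and of 0.74 to 2.78 without 9674. SS + minocycline against SS mice had 0 by either tool, where 0% of genes were called, and SS against AA mice had 0 by either, where 0.159% of 23215 genes were called. For SS + RSD against AA + RSD mice, 1 member by edgeR and 5 by DESeq2 had an unadjusted p under 0.05, with 0.78% of genes called, and 0 by edgeR without 9674. For SS + RSD + minocycline against AA + RSD + minocycline mice these numbers were 4 and 9, with 2.74% of genes called and fold changes of -2.26 to -0.86. The interaction of genotype and RSD had 2 by edgeR and 9 by DESeq2, and 0 by edgeR without 9674. Of all genes, 0.0474% were called there. The shares of genes called in this paragraph are by edgeR at an adjusted p under 0.05. That level is stricter, so the counts of members at an unadjusted p are not set against them. The spread within groups was wide (Ttr 1941 ± 3554 CPM, SD, n = 6, in SS + RSD hippocampi). The size of difference that these tests could detect was not computed, so 0 calls do not show equal levels.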

How the data were processed

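Directional polyA libraries were made from the cortex and hippocampus of each mouse. The authors mapped with STAR on GRCm39, counting during mapping against GENCODE genes, and deposited raw counts per gene; versions and the strand setting are not given in the sources used here. Each table holds 55416 genes. 3 columns that could not be tied to a library of known group were not used.

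CPM were computed on the reads on genes of each library. Counts were tested with edgeR 4.0.16 (R 4.3.3): TMM, filterByExpr (minimum count 10), glmQLFit and glmQLFTest, with Benjamini-Hochberg adjustment over all genes tested and calls at an adjusted p under 0.05. Shares of all genes are of calls by edgeR at an adjusted p under 0.05. No matching share stands beside counts of members at an unadjusted p under 0.05 or by DESeq2, so those counts are not set against the shares. Comparisons within a genotype used all its groups in that tissue, those between genotypes all groups. The SE of a log2 fold change is its size divided by the square root of the F statistic. DESeq2 1.42.0 was an alternative, as were other size factors, no filter, the series of mouse numbers as a term, and leaving out single mice. The 3 series (A, B and C) are a grouping, made here, of the mouse numbers in the titles. Each joins separate runs of numbers. DESeq2 ran with its default handling of outlying counts, and its fold changes can differ from those of edgeR. For cortical SS + RSD against SS mice, the members' median log2 fold change was -0.41 by DESeq2 and -1.59 by edgeR. The scripts were tested on simulated data. Each library is 1 mouse by its title.

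The 10 members and all lists were chosen with earlier results of these data known. 1 gene of the cortical list is not reported here, and the list was computed without it. The members are named in every comparison, with the 8 genes most like their score in both tissues and the 4 genes of highest mean hippocampal CPM of a list. Leaving out 9674 where it is in no named group, 9903 or single SS + RSD mice, the step between scores, and other genes or libraries named for their values were chosen after seeing the data. The mouse number in the titles pairs the tissues.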

Additional observations from a re-analysis of the deposited data

Results flagged for a closer look

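In the cortex of the 8 SS mice, mouse 9903 stood apart from the other 7 in 8 of the 10 genes and in the score, by its gap to the next mouse relative to the whole range, both in log2 CPM. Cortical Ttr of SS mice was in view when the genes were chosen, so this is a description. Its values were 1131 CPM for Ttr, 32.2 for Kl, 5.13 for Folr1, 10.1 for Slc4a5, 3.80 for Kcne2, 7.31 for Aqp1, 7.59 for Mfrp and 9.13 for Tmem72, with a score of 3.76. In the hippocampus of the 7 SS mice, mouse 5349 stood apart in the same way for Kl (67.7 CPM), Aqp1 (9.09), Mfrp (14.1) and Otx2 (5.39). This gap was examined in 66 groups of libraries and values, and chance flags about 1 in 20 of them; the genes of a library are not independent.

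The interaction of genotype and RSD in the cortex was called in 8 genes by edgeR, where 0.236% of all genes were called lower, from values that were in view when the genes were chosen. The log2 values were -6.12 for F5, -4.51 for Kl, -8.83 for Slc4a5, -8.58 for Tmem72, -6.93 for Folr1, -8.57 for Mfrp, -9.54 for Kcne2 and -11.56 for Ttr. Without the library labelled 9674, 0 of them were called.

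The pair of mice with identical counts, outside every comparison, had a hippocampal score of 6.496 and 8835 CPM of Ttr, second among 65 libraries, and a cortical score of -1.13.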

How the results depend on the processing

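Of 200 alternative settings, 166 left a result within 1.5 times of its count or 0.1 of its correlation; fold changes are not covered by this number. In the cortex, counts of members called ranged, without single mice, from 0 to 10 for AA + RSD against AA (0 without 9674), from 0 to 10 for AA + RSD + minocycline against AA + RSD (0 without 9674), from 0 to 9 for SS + RSD against AA + RSD, from 0 to 10 for the interaction and from 0 to 5 for SS against AA (0 without 9903, 5 without 9674, 0 without both). With DESeq2 they were 0, 0, 1, 1 and 1, where it gave p-values to 0, 0, 2, 2 and 2 members. With number series as a term they were 6 for AA + RSD against AA and 0 for SS against AA. For SS against AA, RLE size factors and no filter gave 1 each, and RLE size factors gave 2 for SS + RSD against SS. For hippocampal SS + RSD + minocycline against SS + RSD, the count was 0 to 3 without single mice, 0 with no filter, 3 with DESeq2 and 0 with number series, where the members' median log2 fold change turned from -2.42 to 1.31. The series term also turned hippocampal medians from 2.45 to -0.81 for AA + RSD + minocycline against AA + RSD and from -1.07 to 1.84 for SS + minocycline against SS. In the hippocampus 7 libraries stood far above with 1.5 interquartile ranges, 4 by the score of the 29 other genes and 11 by the widest step. The median correlation was 0.68 (Pearson) in the cortex, 0.93 (Pearson) and 0.66 (under the step) in the hippocampus, and -0.029 (Pearson) between tissues. Apart from the libraries left out, the cause was not tested.

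The replicate block (the mouse, which pairs the tissues) kept 10 members called between tissues and called 11370 genes in place of 8752. Most members had few reads in the cortex, which limits changes that can be seen there.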
